A study of Solanum lycopersicum with 31 samples.

Results

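The PTB7-Th:IEICO-4F filter was tested on tomato leaves in 2 light experiments, and the question here is for which genes its effect differed between them. PTB7-Th:IEICO-4F (PI) is an organic solar cell blend of a polymer donor and a small-molecule acceptor, which together absorb from the red into the near infrared. The difference, called the interaction below, is the log2 change of PI_HC over C_HC minus that of PI_PC over C_PC. A positive interaction means that the filter moved a gene upward more in the height experiment than in the flux experiment. It was read from 15 of the 31 libraries of the series, chosen by their titles. PI_HC (n = 3, replicates 1, 3 and 4) and C_HC (n = 4) are leaves from under the PI filter and from under a control filter without spectral selectivity in the height-controlled experiment. PI_PC (n = 4) and C_PC (n = 4) are the same filters in the experiment with controlled photon flux density (PPFD). All plants were of the wild-type cultivar Moneymaker, grown in a chamber under ceramic metal halide and incandescent bulbs. The submitters state 4 individual plants per condition, so the replicates are plants. PI_HC 2 is not analysed here, and no plant age or sampling hour is given.

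Leaves read the amount and the colour of light through phytochromes, cryptochromes and phototropins, and these signals feed into the circadian clock, flowering regulators and hormone pathways. Light-harvesting proteins bind chlorophyll in the antennae of the photosystems, and their transcripts follow light and plastid state. Sulfate is activated and then reduced by 5'-adenylylsulfate reductase (APR) on the way to cysteine, and transcripts of this enzyme follow light, the time of day and the demand for sulfur. Small heat shock proteins, HSP70, HSP90 and chaperonins keep other proteins folded and are known for their response to heat.

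Gene counts per library summed to 13671052 to 15173043, and 18180 to 19523 genes had a count. PI_HC 4 held the lowest value of both. It also had the largest share of counts on records without a gene name, 0.379%, against at most 0.0409% in any other library. Whether these values bear on the results was not tested. A count of 3, the floor used for detection, equals 0.198 to 0.219 CPM (gene counts scaled to a common library total), which covers counting error only. For the CPM of genes and lists, library totals were first adjusted with edgeR's TMM normalisation factors. The floor was not adjusted in this way, so its scale differs from theirs. Exon records that share coordinates hold no counts in these files, so the 23.9% of genes with 2 or more annotated transcripts carry only 1.38% of the counts and are measured poorly. Ribulose bisphosphate carboxylase small subunit genes, the leaf markers, had counts for 4 of 4 members, with summed CPM of 8683 to 10588 in PI_HC, 9425 to 11111 in C_HC, 4612 to 19102 in PI_PC and 5937 to 15562 in C_PC.

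The labels of 2 libraries conflict with the codes in the deposited column names. The library labelled C_PC 4 carries the code that the files otherwise give to PI_PC 1, 2 and 3. The library labelled PI_PC 4 carries the code otherwise given to FP_PC 1, 2 and 3, leaves from under a different filter. FP_PC 4, which enters only the estimate of the spread, carries the code otherwise given to PI_HC. In the expression profile 3 libraries stood apart. On the first principal component (45.4% of the variance of the 2000 most variable genes) the scores were 59.5 for PI_PC 2, 59.4 for PI_PC 3 and 60.0 for the library labelled C_PC 4. The other 12 libraries lay between -34.9 for C_PC 3 and 0.50 for PI_PC 1. Counts for most gene lists are therefore given with all libraries under their labels, without both libraries labelled PC4 and without the 3 libraries that stand apart. For single genes the further sets are given where they end a call or where the gene is described in full. These 3 sets share most libraries and are not independent of each other. Without the 3 that stand apart, the PI_PC group holds PI_PC 1 and PI_PC 4 alone, and PI_PC 4 has the conflicting code. PI_PC 2 and PI_PC 3 were left out there for their profile, not for their codes.

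Differences were tested with edgeR's quasi-likelihood test, and p-values were adjusted over all tested genes by the Benjamini-Hochberg method. All effects and interactions are on the log2 scale. Their standard error (SE) was derived from the test, as the size of the effect over the square root of its F statistic. A gene is said to pass or to be called when its adjusted p was under 0.05. With all libraries, 135 of 16198 tested genes (0.833%) had an interaction, of which 70 (0.432%) were positive and 65 (0.401%) negative. The filter effect itself passed for 347 genes (2.14%; 1% higher and 1.14% lower) in the height experiment and 50 genes (0.309%; 0.13% higher and 0.179% lower) in the flux experiment. Of the 135 genes, 126 had effects of opposite sign in the 2 experiments as point estimates. Genes chosen for a difference between 2 effects tend to have opposite signs, so this count tests nothing. Its share over all genes was not taken. Of the same 135 genes, 105 had the larger effect in the height experiment, 82 also passed there, and 14 also passed in the flux experiment. Only 1 gene (0.00617%) passed in both experiments with opposite signs and in the interaction.

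Without both PC4 libraries, 2813 of 16121 genes (17.4%) had an interaction, 1519 positive (9.42%) and 1294 negative (8.03%). The flux effect then passed for 4646 genes (28.8%; 13.3% higher and 15.6% lower) and the height effect for 749 (4.65%, of which 2.36% higher and 2.28% lower). As point estimates 2235 of the 2813 genes had effects of opposite sign. The balance between the experiments was the other way round. Of the 2813 genes, 554 had the larger effect in the height experiment, 346 passed there and 2217 passed in the flux experiment. Opposite responses that passed all 3 tests were found for 126 genes (0.782%), of which 61 (0.378%) were higher under the filter in the height experiment and lower in the flux experiment, and 65 (0.403%) the reverse. Without the 3 libraries that stand apart, 322 of 16328 genes (1.97%) had an interaction, 190 positive (1.16%) and 132 negative (0.808%). The flux effect passed for 315 genes (1.93%; 0.704% higher and 1.22% lower) and the height effect for 924 (5.66%; 2.6% higher and 3.06% lower). Opposite responses were found for 8 genes (0.049%), 4 in each direction (0.0245%).

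All 135 genes called with all libraries were also called without both PC4 libraries, and 108 of the 135 were called in all 3 sets, 65 positive and 43 negative. The number of calls depended on single libraries and on the fit. A fit of the 4 groups alone, without the other 16 libraries to estimate the spread, called 1 gene with all libraries and 1599 genes without both PC4 libraries. Leaving out PI_HC 4, the library with the lowest gene total and the fewest genes with a count, gave 5 calls. Leaving out the library labelled C_PC 4 gave 1194. The other single omissions that moved the count by over 1.5 times gave 32, 48 and 83 calls (C_PC 2, 1 and 3), 41, 75, 306 and 320 calls (PI_PC 3, 2, 1 and 4), 71 calls (PI_HC 1) and 53, 58 and 73 calls (C_HC 1, 2 and 3).

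**Figure D1:**
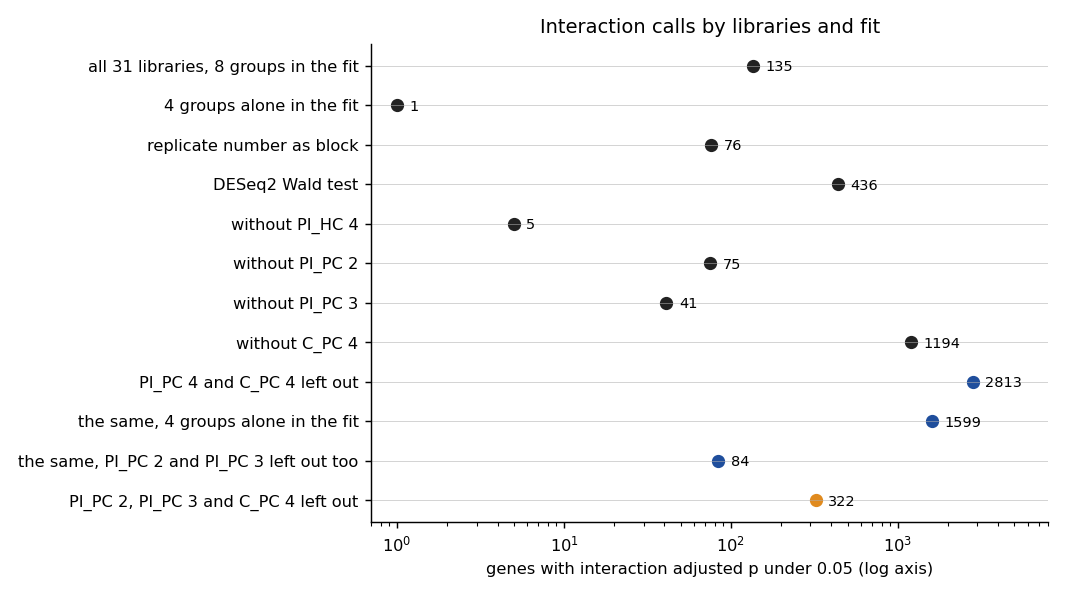
Genes with an interaction adjusted p under 0.05 (log axis) by the libraries and the fit used, in black for sets built on all libraries, in blue for sets without PI_PC 4 and C_PC 4 and in orange for the set without PI_PC 2, PI_PC 3 and C_PC 4. The count lies at 135 with all libraries, 2813 without both PC4 libraries and 84 when PI_PC 2 and PI_PC 3 are left out as well.

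**Figure D2:**
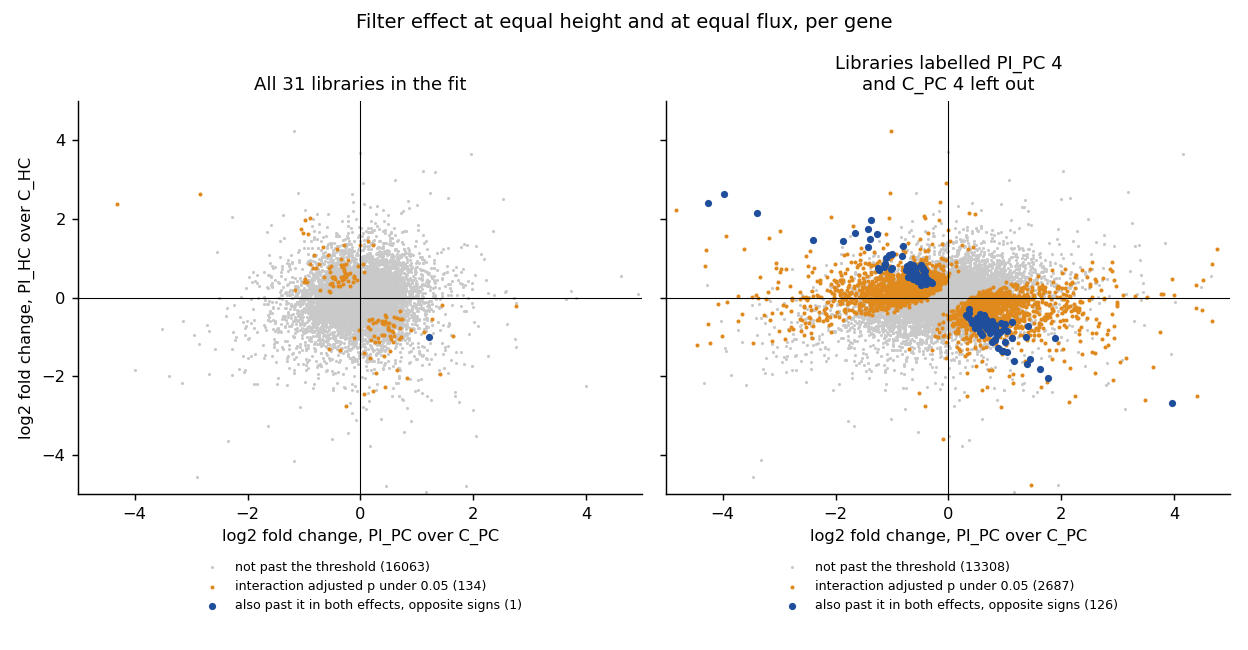
Log2 fold change of PI_HC over C_HC (vertical) against that of PI_PC over C_PC (horizontal), 1 point per gene, with all libraries (left) and without both PC4 libraries (right). Orange points passed the interaction test, blue points also passed both filter effects with opposite signs (1 gene on the left, 126 on the right). 7 genes on the left and 16 on the right lie outside the axes.

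Sulfur assimilation held the interaction that was least dependent on the choice of libraries. LOC101257319, an APR3 gene (chr2:29913915-29916444, plus strand; all coordinates are of build SL3.0), had 19.9, 18.6 and 19.5 CPM in PI_HC libraries, against 123, 89.8, 82.6 and 79.4 CPM in C_HC libraries. In the flux experiment it had 35.3, 54.1, 62.05 and 50.7 CPM in PI_PC 1 to 4, against 33.3, 31.2, 29.02 and 55.3 CPM in C_PC 1 to 4. The height groups were far apart, whereas in the flux experiment the library labelled C_PC 4 lay among the PI_PC libraries. The interaction was -2.72 (SE 0.38, adjusted p = 0.002) with all libraries, -2.96 (SE 0.39, adjusted p = 0.000111) without both PC4 libraries and -2.73 (SE 0.39, adjusted p = 0.00068) without the 3 that stand apart. It was also the single gene called in the fit of the 4 groups alone, with an interaction of -2.71 (SE 0.33, adjusted p = 0.0135), and without each library in turn its adjusted p ran from 0.000199 to 0.00957. It fell under the filter in the height experiment, with an effect of -2.28 (SE 0.29, adjusted p = 0.000101), and its flux effect was 0.44 (SE 0.25, adjusted p = 0.428).

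The other APR3 gene, LOC101252466 (chr3:4121794-4124728, minus strand), had 4.06, 2.78 and 5.67 CPM in PI_HC libraries, against 17.7, 16.7, 15.4 and 9.67 CPM in C_HC libraries. Under controlled photon flux it had 7.17, 8.90, 14.6 and 13.4 CPM in PI_PC 1 to 4, against 6.42, 4.83, 6.65 and 10.02 CPM in C_PC 1 to 4. Again the height groups did not overlap, with the filter lower, and the flux groups did. Its interaction was -2.49 (SE 0.41, adjusted p = 0.00633) with all libraries and -2.60 (SE 0.41, adjusted p = 0.000347) without both PC4 libraries, and its adjusted p stayed between 0.000656 and 0.0204 without each library in turn. LOC101243970, similar to RESPONSE TO LOW SULFUR 3, belongs to a family of small proteins induced by sulfur shortage (chr3:60555181-60555854, minus strand). It had 55.99, 74.1 and 36.1 CPM in PI_HC libraries, against 184, 141, 146 and 96.8 CPM in C_HC libraries. The flux groups had 115, 123, 149 and 95.3 CPM in PI_PC 1 to 4, against 72.6, 60.6, 64.99 and 136 CPM in C_PC 1 to 4. This gene was lower under the filter in the height experiment, with no overlap between groups, and higher in PI_PC 1 to 3 than in C_PC 1 to 3. Its interaction was -1.88 (SE 0.36, adjusted p = 0.0123) with all libraries and -2.31 (SE 0.32, adjusted p = 0.000145) without both PC4 libraries, where it also passed in both experiments with opposite signs. Without PI_HC 4 the adjusted p was 0.0767. Sulfate transporter 3.1 (LOC101264062, chr9:63925689-63934213, minus strand) went the other way. It had 57.5, 59.4 and 78.2 CPM in PI_HC libraries, against 46.5, 57.7, 62.05 and 59.8 CPM in C_HC libraries, which overlapped. With controlled PPFD it had 22.9, 26.2, 22.2 and 30.9 CPM in PI_PC 1 to 4, against 62.7, 84.3, 47.7 and 34.8 CPM in C_PC 1 to 4. Its interaction was 1.37 (SE 0.32, adjusted p = 0.0382). It fell in the flux experiment by 1.17 on the log2 scale (adjusted p = 0.0267), where the groups did not overlap. The call was lost without any 1 of 9 libraries (PI_HC 1 and 4, C_HC 1, 2 and 3, PI_PC 2 and 3, C_PC 1 and 2; highest adjusted p = 0.161). In all, 4 of 34 tested genes of sulfate assimilation had an interaction, 1 positive and 3 negative, with all libraries, where 0.833% of all genes did. The same counts held without the 3 libraries that stand apart (1.97% of all genes). Without both PC4 libraries 3 were positive and 3 negative, close to the 17.4% of all genes called there. The median interaction of the 34 genes was -0.13, against 0.002 over all genes.

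Flowering-time and clock genes held interactions of both signs. SP5G (chr5:64738354-64740327, plus strand) encodes a relative of FLOWERING LOCUS T that represses flowering in tomato. It had 67.3, 91.1 and 90.1 CPM in PI_HC libraries, against 34.6, 26.4, 44.2 and 35.98 CPM in C_HC libraries. Its flux-experiment levels were 48.8, 29.2, 22.96 and 38.1 CPM in PI_PC 1 to 4, against 42.4, 46.4, 54.1 and 42.2 CPM in C_PC 1 to 4. The transcript was higher in each PI_HC library than in each C_HC library, while the flux groups overlapped. The interaction was 1.64 (SE 0.27, adjusted p = 0.00633) with all libraries, 1.75 (SE 0.29, adjusted p = 0.000429) without both PC4 libraries and 1.37 (SE 0.26, adjusted p = 0.00696) without the 3 that stand apart, and no single library ended the call (adjusted p from 0.000391 to 0.0368). PRR37 (LOC101254785, chr4:42786557-42814212, minus strand) encodes a pseudo-response regulator of the clock. It had 157, 191 and 181 CPM in PI_HC libraries, against 59.1, 59.9, 70.3 and 89.5 CPM in C_HC libraries. Levels in the flux experiment were 138, 124, 138 and 137 CPM in PI_PC 1 to 4, against 92.2, 118, 126 and 122 CPM in C_PC 1 to 4. The height groups were far apart, and the flux groups overlapped. Both effects had the same sign, 1.34 (SE 0.15, adjusted p = 1.4e-05) in the height experiment and 0.23 (SE 0.14, adjusted p = 0.458) in the flux experiment. The interaction was 1.11 (SE 0.21, adjusted p = 0.00992) with all libraries, 1.10 (SE 0.22, adjusted p = 0.00186) without both PC4 libraries, and not past the threshold without PI_HC 4 (adjusted p = 0.0528).

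CONSTANS and its relatives carry B-box zinc fingers, and CONSTANS of Arabidopsis links day length to flowering. CONSTANS-LIKE 16 (LOC101254370, chr3:69603187-69604937, minus strand) had 353, 371 and 587 CPM in PI_HC libraries, against 222, 212, 276 and 260.1 CPM in C_HC libraries. At controlled flux it had 269, 173, 143 and 265 CPM in PI_PC 1 to 4, against 396, 480.2, 387 and 145 CPM in C_PC 1 to 4. The gene was higher under the filter in the height experiment and, PI_PC 1 to 3 against C_PC 1 to 3, lower in the flux experiment. Its interaction was 1.58 (SE 0.35, adjusted p = 0.0312) with all libraries, 1.97 (SE 0.26, adjusted p = 0.000111) without both PC4 libraries and 1.51 (SE 0.24, adjusted p = 0.00165) without the 3 that stand apart, and the call with all libraries was lost without any 1 of 8 libraries (PI_HC 4, C_HC 1 and 2, PI_PC 2 and 3, C_PC 1, 2 and 3; highest adjusted p = 0.159). CONSTANS 1 (CO1, chr2:51960295-51962800, minus strand) had 362, 343 and 414 CPM in PI_HC libraries, against 249, 299, 291 and 287 CPM in C_HC libraries. In the flux experiment it had 179, 174, 95.1 and 149.7 CPM in PI_PC 1 to 4, against 356, 424, 302 and 119 CPM in C_PC 1 to 4. The larger of its effects lay in the flux experiment, -1.01 against 0.41 in the height experiment. The interaction was 1.41 (SE 0.34, adjusted p = 0.042) with all libraries, a call that 12 of 15 single omissions ended, and 1.69 (SE 0.25, adjusted p = 0.000186) without both PC4 libraries. A further CONSTANS-like gene, LOC100191137, had an interaction of 1.18 (SE 0.26, adjusted p = 0.0311), while CONSTANS-LIKE 13 (LOC101258781) had -0.73 (SE 0.16, adjusted p = 0.0311) and CONSTANS-LIKE 10 (LOC101267825) had -0.75 (SE 0.17, adjusted p = 0.0382). LOC100191137 and CONSTANS-LIKE 13 were each called in 8 of 15 single omissions, and CONSTANS-LIKE 10 in 6. CONSTANS-LIKE 10 fell under the filter in both experiments. It fell by 1.30 in the height experiment (adjusted p = 2.71e-06) and by 0.55 in the flux experiment (adjusted p = 0.0358). Of 41 tested clock and CONSTANS-like genes, 4 had a positive and 2 a negative interaction with all libraries, where 0.432% and 0.401% of all genes did. There were 11 and 6 of 40 without both PC4 libraries (9.42% and 8.03% of all genes), and 6 and 2 of 40 without the 3 that stand apart (1.16% and 0.808%).

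Among 52 tested photoreceptor, light signalling and homeobox-leucine zipper genes, 3 had a positive interaction and none a negative one with all libraries. Over all genes 0.432% and 0.401% did. There were 8 positive and 5 negative calls without both PC4 libraries, where 9.42% and 8.03% of all genes were called. The negative count is close to that share. Without the 3 that stand apart 3 were positive and 1 negative, where 1.16% and 0.808% of all genes were. That negative call was the homeobox-leucine zipper gene LOC101261778, named after its values were seen, with -3.21 (SE 0.69, adjusted p = 0.0147) there and -3.44 (SE 0.65, adjusted p = 0.00104) without both PC4 libraries. Phytochrome B1 (PHYB1, chr1:68878651-68885472, minus strand), a receptor of red and far-red light, had 176, 171 and 209 CPM in PI_HC libraries, against 158, 154, 133 and 154 CPM in C_HC libraries. Under controlled photon flux it had 143, 116, 101 and 138 CPM in PI_PC 1 to 4, against 174, 222, 185 and 115 CPM in C_PC 1 to 4. PI_HC lay above C_HC, and in the flux experiment PI_PC 1 to 4 lay below C_PC 1 to 3. Its interaction was 0.79 (SE 0.19, adjusted p = 0.0476) with all libraries and 1.01 (SE 0.16, adjusted p = 0.000338) without both PC4 libraries. Phototropin-1 (PHOT1), a blue light receptor, rose in the height experiment, with an effect of 0.85 (SE 0.14, adjusted p = 0.00136), and had a flux effect of 0.05 (SE 0.13, adjusted p = 0.909). Its interaction was 0.80 (SE 0.19, adjusted p = 0.042), and 0.65 (SE 0.21, adjusted p = 0.106) without the 3 libraries that stand apart. BBX19 (LOC101264380, 2 annotated transcripts), a B-box zinc finger gene, had an interaction of 1.56 (SE 0.36, adjusted p = 0.0382) with all libraries and 1.91 (SE 0.29, adjusted p = 0.000246) without both PC4 libraries. All 3 calls with all libraries were lost when PI_HC 4 was left out, with adjusted p of up to 0.192 for PHYB1, 0.194 for PHOT1 and 0.147 for BBX19 over all single omissions. PHYB1 was called in 3, BBX19 in 4 and PHOT1 in 6 of 15 single omissions.

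The 61 genes that were higher under the filter in the height experiment and lower in the flux experiment, without both PC4 libraries, had median effects of 0.74 and -0.67. With all libraries their median height effect was 0.73 and their median flux effect -0.40. As point estimates 60 of the 61 kept both signs with all libraries and 56 did without the 3 that stand apart, and 29 and 42 of them had an interaction there. These genes were chosen for both effects and the interaction, and the sets share most libraries. The medians, kept signs and calls therefore describe them and test nothing. Of all genes, 0.833% had an interaction with all libraries and 1.97% without the 3 that stand apart.

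Tonoplast dicarboxylate transporter (LOC101257524, chr11:5208623-5212814, plus strand), which moves malate across the vacuole membrane, had 182, 147 and 251 CPM in PI_HC libraries, against 90.2, 75.2, 109.5 and 87.9 CPM in C_HC libraries. The flux groups had 63.8, 114, 57.1 and 82.7 CPM in PI_PC 1 to 4, against 152, 197, 122 and 89.6 CPM in C_PC 1 to 4. It was higher under the filter in the height experiment, and each of PI_PC 1 to 4 lay below each of C_PC 1 to 3. Its interaction was 1.91 (SE 0.32, adjusted p = 0.00633) with all libraries, 2.10 (SE 0.31, adjusted p = 0.000197) without both PC4 libraries and 2.20 (SE 0.30, adjusted p = 0.000672) without the 3 that stand apart, where it again passed all 3 tests. The adjusted p was 0.0503 without PI_HC 4. Malate synthase of the glyoxylate cycle (LOC101267395, chr3:63274389-63277130, minus strand) had 44.5, 52.4 and 91.5 CPM in PI_HC libraries, against 12.4, 20.3, 14.6 and 16.3 CPM in C_HC libraries. With controlled PPFD it had 19.2, 18.1, 11.2 and 21.02 CPM in PI_PC 1 to 4, against 51.9, 50.9, 22.4 and 11.7 CPM in C_PC 1 to 4. Each PI_HC library lay far above each C_HC library, and C_PC 1 and 2 stood above the other flux libraries. Its interaction was 2.96 (SE 0.51, adjusted p = 0.00692) with all libraries and 3.36 (SE 0.46, adjusted p = 0.000121) without both PC4 libraries, with an adjusted p of 0.0522 without PI_HC 4.

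GLK2 (chr10:2280793-2285511, plus strand) encodes a transcription factor that drives chloroplast development and is known for the uniform ripening trait of tomato fruit. It had 34.01, 28.8 and 36.5 CPM in PI_HC libraries, against 13.7, 13.6, 13.99 and 21.4 CPM in C_HC libraries. Its flux-experiment levels were 20.8, 10.5, 11.1 and 23.5 CPM in PI_PC 1 to 4, against 27.7, 32.9, 26.8 and 11.1 CPM in C_PC 1 to 4. GLK2 was higher in PI_HC than in C_HC, and in the flux experiment its lowest libraries were PI_PC 2, PI_PC 3 and the library labelled C_PC 4. Its interaction was 1.66 (SE 0.39, adjusted p = 0.0382) with all libraries, 2.14 (SE 0.31, adjusted p = 0.000181) without both PC4 libraries and 1.48 (SE 0.29, adjusted p = 0.00794) without the 3 that stand apart, and it was called in 5 of 15 single omissions. A CCCH zinc finger gene (LOC101252701) had an interaction of 2.67 (SE 0.58, adjusted p = 0.0273) with all libraries and 3.31 (SE 0.45, adjusted p = 0.000121) without both PC4 libraries. A protein phosphatase 2C gene (LOC101266075, 2 annotated transcripts) had 1.27 (SE 0.43, adjusted p = 0.144) and 1.92 (SE 0.29, adjusted p = 0.000236) in the same 2 sets, a beta-glucosidase gene (LOC101248595) 0.76 (SE 0.16, adjusted p = 0.0273) and 0.98 (SE 0.14, adjusted p = 0.000166), and a lipase gene (LOC101268569) 0.84 (SE 0.16, adjusted p = 0.0138) and 1.09 (SE 0.13, adjusted p = 3.01e-05). The pentatricopeptide repeat gene LOC101244816, the chloroplast protease gene FTSH 9 (LOC101263215) and the MATE-type transporter DETOXIFICATION 16-like (LOC101253179) had opposite responses past all 3 tests without the 3 libraries that stand apart. Their interactions there were 2.17 (SE 0.42, adjusted p = 0.00774), 0.70 (SE 0.14, adjusted p = 0.00794) and 1.12 (SE 0.16, adjusted p = 0.00068). With the tonoplast transporter they make up the 4 of the 8 genes that were higher under the filter in the height experiment. LOC101252701 and LOC101248595 were each called in 8 of 15 single omissions, and LOC101268569 in 14.

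**Figure D3:**
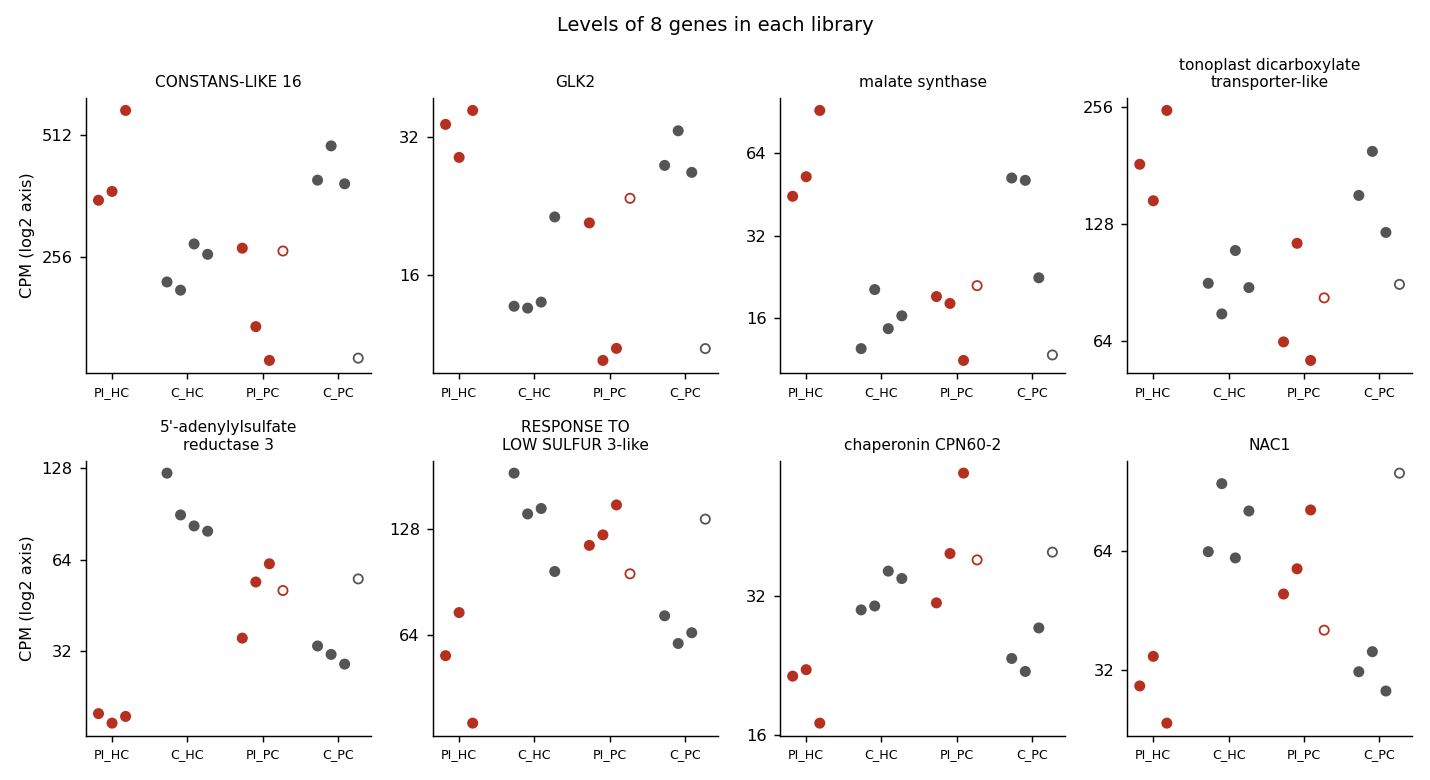
CPM (log2 axis) of 8 genes in each of the 15 libraries, in the order PI_HC, C_HC, PI_PC and C_PC, with the libraries labelled PC4 as open circles and the filter groups in red. In the top row PI_HC lies above C_HC, in the bottom row below it, and the open circle of C_PC lies away from the other 3 C_PC libraries in most panels.

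The 65 genes with the reverse pattern, lower under the filter in the height experiment and higher in the flux experiment, had median effects of -0.73 and 0.76 without both PC4 libraries. With all libraries the medians were -0.74 and 0.38, and 62 of the 65 kept both signs, as did 56 without the 3 that stand apart. An interaction was called for 24 and 32 of them in those sets, against 0.833% and 1.97% of all genes. These genes too were chosen for both effects and the interaction, so the medians, kept signs and calls test nothing. NAC1 (chr4:2856617-2858593, plus strand), a NAC-family transcription factor gene, had 29.2, 34.7 and 23.5 CPM in PI_HC libraries, against 63.6, 94.3, 61.3 and 80.5 CPM in C_HC libraries. Levels in the flux experiment were 49.8, 57.6, 80.98 and 40.3 CPM in PI_PC 1 to 4, against 31.7, 35.6, 28.4 and 100.2 CPM in C_PC 1 to 4. The library labelled C_PC 4 was the highest of all 15, while C_PC 1 to 3 lay below each PI_PC library. The interaction was -1.58 (SE 0.41, adjusted p = 0.0599) with all libraries and -2.32 (SE 0.27, adjusted p = 3.01e-05) without both PC4 libraries. Gibberellin 2-beta-dioxygenase 1 (LOC101249786, chr2:40724641-40726778, minus strand), which inactivates gibberellins, had 11.1, 12.7 and 8.40 CPM in PI_HC libraries, against 22.9, 19.3, 22.7 and 23.8 CPM in C_HC libraries. At controlled flux it had 14.4, 30.5, 38.4 and 9.96 CPM in PI_PC 1 to 4, against 6.42, 8.70, 7.31 and 33.3 CPM in C_PC 1 to 4. Again C_PC 4 stood with PI_PC 2 and 3, and the interaction was -1.78 (SE 0.60, adjusted p = 0.146) with all libraries, -2.92 (SE 0.41, adjusted p = 0.000145) without both PC4 libraries and -1.75 (SE 0.38, adjusted p = 0.0152) without the 3 that stand apart.

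ACO4 (chr7:59974854-59976564, plus strand), an ACC oxidase gene of ethylene synthesis, had 9.74, 7.76 and 5.67 CPM in PI_HC libraries, against 24.3, 21.1, 22.2 and 14.1 CPM in C_HC libraries. In the flux experiment it had 12.1, 16.2, 25.2 and 11.3 CPM in PI_PC 1 to 4, against 8.53, 8.78, 8.70 and 33.9 CPM in C_PC 1 to 4. Its interaction was -1.51 (SE 0.52, adjusted p = 0.159) with all libraries and -2.43 (SE 0.39, adjusted p = 0.000347) without both PC4 libraries. ARGOS (LOC100316893), whose Arabidopsis relative acts on organ size, had -2.87 (SE 0.70, adjusted p = 0.0472) and -3.80 (SE 0.53, adjusted p = 0.000133) in these 2 sets, but -1.65 (SE 0.47, adjusted p = 0.0607) without the 3 libraries that stand apart, where its flux effect had the other sign (-0.38). The glucosyltransferase gene twi1 had -1.35 (SE 0.36, adjusted p = 0.064) and -1.88 (SE 0.28, adjusted p = 0.000197), and BRX1 (LOC101259142), a ribosome biogenesis gene, had -1.27 (SE 0.32, adjusted p = 0.052) and -1.74 (SE 0.25, adjusted p = 0.000166). LOC101267530, a LURP-one-related gene, had -1.41 (SE 0.43, adjusted p = 0.106) and -2.15 (SE 0.31, adjusted p = 0.000166). The ARGOS call with all libraries held in 3 of 15 single omissions.

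LOC543814 (chr9:4888379-4889499, plus strand), which the annotation does not characterise, was the single gene with opposite responses past all 3 tests in all 3 sets. It had 5.75, 4.71 and 4.09 CPM in PI_HC libraries, against 10.7, 11.8, 8.63 and 7.72 CPM in C_HC libraries. Under controlled photon flux it had 8.78, 18.4, 21.4 and 24.8 CPM in PI_PC 1 to 4, against 7.02, 6.32, 5.34 and 12.8 CPM in C_PC 1 to 4. With all libraries it fell by 1.00 under the filter in the height experiment (adjusted p = 0.046) and rose by 1.22 in the flux experiment (adjusted p = 0.0269), with an interaction of -2.22 (SE 0.36, adjusted p = 0.00633). The height groups did not overlap, and in the flux experiment PI_PC 1 lay below the library labelled C_PC 4. Without each library in turn the interaction had an adjusted p of 0.000199 to 0.045. An E3 ubiquitin ligase gene (LOC101249062) passed all 3 tests without the 3 libraries that stand apart, with an interaction of -1.72 (SE 0.21, adjusted p = 0.000149), against -1.55 (SE 0.59, adjusted p = 0.2) with all libraries. The other genes of this direction among the 8, LOC101249561 and LOC101259565, are not characterised either.

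Small heat shock genes had the most negative median interaction of the lists examined in all 3 sets. The median over the 27 tested members was -1.44 with all libraries, -1.45 (26 members) without both PC4 libraries and -1.23 (26 members) without the 3 that stand apart, and 2 members were positive in each set. Members that passed numbered 2, 15 and 3, all negative, where 0.401%, 8.03% and 0.808% of all genes were negative calls. The larger effects lay in the flux experiment: 9, 16 and 10 members rose under the filter there, against 0.13%, 13.3% and 0.704% of all genes that rose, with median effects of 1.35, 1.52 and 1.04. In the height experiment 1 member fell and none rose in each set, with a median of -0.14 with all libraries. Of all genes 1.14%, 2.28% and 3.06% fell there, and 1%, 2.36% and 2.6% rose. Summed over the list, the level was 3221, 3459 and 3203 CPM in PI_HC libraries and 2729, 2943, 3557 and 3125 CPM in C_HC libraries. Across the flux groups the sum was 4275, 4187, 5251 and 4287 CPM in PI_PC 1 to 4 and 3558, 3356, 3546 and 3842 CPM in C_PC 1 to 4, without overlap even with the library labelled C_PC 4.

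A class IV small heat shock gene, LOC101254946 (chr1:91487740-91488588, plus strand), had 10.8, 11.998 and 8.61 CPM in PI_HC libraries, against 7.12, 6.76, 15.04 and 19.9 CPM in C_HC libraries. The flux groups had 51.8, 79.5, 235 and 148 CPM in PI_PC 1 to 4, against 14.8, 8.63, 22.7 and 29.5 CPM in C_PC 1 to 4. All PI_PC libraries lay above all C_PC libraries, and the height groups overlapped. The interaction was -2.98 (SE 0.72, adjusted p = 0.0446) with all libraries and -3.19 (SE 0.76, adjusted p = 0.00599) without both PC4 libraries. A class I gene, LOC101268020 (chr9:7440153-7441017, plus strand), had 4.26, 5.24 and 3.88 CPM in PI_HC libraries, against 3.82, 4.15, 5.69 and 6.71 CPM in C_HC libraries. With controlled PPFD it had 10.5, 11.7, 25.999 and 12.96 CPM in PI_PC 1 to 4, against 4.53, 4.46, 7.09 and 6.44 CPM in C_PC 1 to 4. Here too the flux groups did not overlap and the height groups did. Its interaction was -1.63 (SE 0.38, adjusted p = 0.0398) with all libraries, -1.76 (SE 0.41, adjusted p = 0.00549) without both PC4 libraries and -1.31 (SE 0.37, adjusted p = 0.0586) without the 3 that stand apart. Another class I gene, LOC101256536, had -0.81 (SE 0.80, adjusted p = 0.68) and -2.40 (SE 0.56, adjusted p = 0.00533) in the first 2 sets. Both calls with all libraries were lost in most single omissions, with adjusted p of up to 0.167 and 0.157. Small heat shock and light-harvesting genes come in families of similar copies, so reads shared between copies make single members uncertain.

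Large chaperones had mostly negative calls. Of 101 tested genes, 8 had a negative interaction and none a positive one with all libraries, where 0.401% and 0.432% of all genes did. Without both PC4 libraries 21 were negative and 3 positive, against 8.03% and 9.42% of all genes. Of the 21, 5 passed all 3 tests with opposite responses, where 0.403% of all genes did so in that direction. Without the 3 libraries that stand apart 6 of 102 were negative and 1 positive (0.808% and 1.16% of all genes). The positive one was a chloroplast DnaJ gene, LOC101257564, named after its values were seen, with 1.45 (SE 0.36, adjusted p = 0.0325) there and 1.22 (SE 0.33, adjusted p = 0.0137) without both PC4 libraries. Mitochondrial HSP70 (LOC101267273, chr1:94051771-94055693, plus strand) had 92.1, 84.7 and 73.3 CPM in PI_HC libraries, against 110.0, 122, 118 and 117 CPM in C_HC libraries. Its flux-experiment levels were 110.5, 134, 172 and 119 CPM in PI_PC 1 to 4, against 93.02, 94.4, 89.7 and 113 CPM in C_PC 1 to 4. It was lower in each PI_HC library than in each C_HC library and higher in PI_PC 1 to 3 than in C_PC 1 to 3. Its interaction was -0.95 (SE 0.17, adjusted p = 0.00977) with all libraries, -1.06 (SE 0.18, adjusted p = 0.000434) without both PC4 libraries and -0.79 (SE 0.16, adjusted p = 0.00854) without the 3 that stand apart. The mitochondrial chaperonin CPN60-2 (LOC101263320, chr5:64408207-64414351, plus strand) had 21.5, 22.2 and 17.01 CPM in PI_HC libraries, against 29.9, 30.5, 36.3 and 34.97 CPM in C_HC libraries. Levels in the flux experiment were 30.98, 39.6, 59.1 and 38.4 CPM in PI_PC 1 to 4, against 23.5, 22.01, 27.3 and 39.9 CPM in C_PC 1 to 4. Its height groups did not overlap, and C_PC 4 lay above C_PC 1 to 3. Its interaction was -1.28 (SE 0.26, adjusted p = 0.0189) with all libraries and -1.52 (SE 0.25, adjusted p = 0.000417) without both PC4 libraries.

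The second CPN60-2 gene (LOC101250927) had an interaction of -1.16 (SE 0.25, adjusted p = 0.0268), and a further chaperonin gene (LOC101244957) one of -1.47 (SE 0.27, adjusted p = 0.00977). DnaJ genes work as partners of HSP70, and 3 of them were called: LOC101267064 with -1.23, LOC101259708 with -1.51 and ERDJ3A (LOC101256620) with -0.88, at adjusted p of 0.0382, 0.0382 and 0.0418. The call of LOC101259708 was lost without the 3 libraries that stand apart, at -1.42 (SE 0.41, adjusted p = 0.0654). HSP90 had 421, 396 and 382 CPM in PI_HC libraries, against 566, 485, 957 and 1219 CPM in C_HC libraries. At controlled flux it had 1168, 1428, 1580.3 and 1766 CPM in PI_PC 1 to 4, against 909.9, 772, 1017 and 917 CPM in C_PC 1 to 4. Neither pair of groups overlapped, C_HC 3 and 4 stood well above C_HC 1 and 2, and the interaction of -1.73 (SE 0.42, adjusted p = 0.0427) was -1.71 (SE 0.48, adjusted p = 0.0593) without the 3 libraries that stand apart. Leaving out PI_HC 4 ended all 8 calls. Their highest adjusted p over the single omissions was 0.167. HSP90, LOC101267064 and ERDJ3A were called in 5 of 15 single omissions each, and LOC101259708 in 6. The CPN60-2 genes LOC101263320 and LOC101250927 were called in 11 and 10, and LOC101267273 and LOC101244957 in 14 each.

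**Figure D4:**
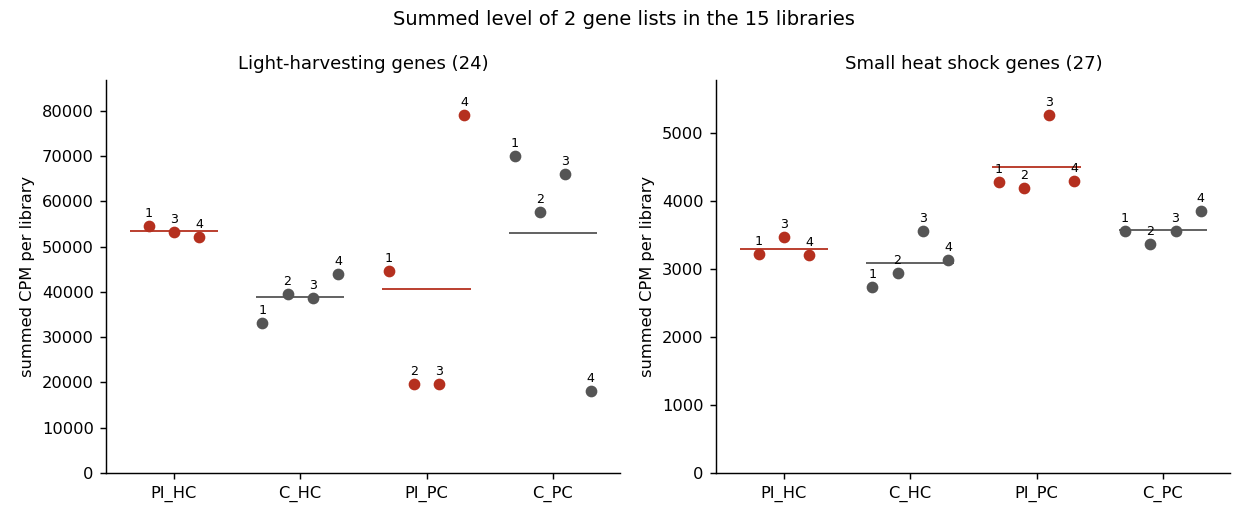
Summed CPM of the light-harvesting genes (left) and of the small heat shock genes (right) in each of the 15 libraries, labelled by replicate number, with the group mean as a line. PI_PC 2, PI_PC 3 and C_PC 4 lie lowest on the left, and all PI_PC libraries lie above all C_PC libraries on the right.

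Light-harvesting genes had the largest positive median of the lists examined in all 3 sets, and it depended on the libraries. With all libraries 24 of 24 members had a positive interaction as a point estimate, with a median of 0.91, and none passed. Without both PC4 libraries 22 of 24 passed, where 9.42% of all genes were positive calls, and the median was 1.86. Without the 3 libraries that stand apart none passed and the median was 0.61. The flux experiment differed most between the sets: 23 members fell there without both PC4 libraries (median -1.41), against 15.6% of all genes that fell, while none passed with all libraries. In the height experiment the median effect was 0.53 in each set, with 0, 2 and 4 members that rose. Of all genes 1%, 2.36% and 2.6% rose there. Summed over the list, the level was 54645, 53289 and 52119 CPM in PI_HC libraries and 33169, 39485, 38559.8 and 43978 CPM in C_HC libraries, without overlap. In the flux experiment it was 44674, 19691, 19539 and 78989 CPM in PI_PC 1 to 4 and 70035, 57652, 66126 and 18035 CPM in C_PC 1 to 4. PI_PC 2, PI_PC 3 and C_PC 4 held the lowest sums of all 15 libraries, and PI_PC 4 the highest.

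Cab-1A (chr2:41082735-41083706, plus strand), an antenna protein gene, had 56.7, 49.9 and 98.5 CPM in PI_HC libraries, against 12.7, 11.2, 13.1 and 25.3 CPM in C_HC libraries. In the flux experiment it had 19.7, 2.15, 2.45 and 147 CPM in PI_PC 1 to 4, against 101, 62.8, 88.2 and 1.91 CPM in C_PC 1 to 4. Here PI_PC 2, PI_PC 3 and C_PC 4 had almost none of the transcript. Its interaction was 2.71 (SE 1.29, adjusted p = 0.329) with all libraries, 5.54 (SE 0.89, adjusted p = 0.00036) without both PC4 libraries and 2.15 (SE 0.86, adjusted p = 0.194) without the 3 that stand apart. CAB5 had interactions of 2.85 (SE 1.06, adjusted p = 0.191), 4.69 (SE 0.74, adjusted p = 0.000338) and 2.38 (SE 0.70, adjusted p = 0.0695) in the 3 sets. The photosystem list, with 42 tested members, had 0, 24 and 0 positive calls and medians of 0.37, 1.17 and 0.03. Over all genes 0.432%, 9.42% and 1.16% were positive calls in these sets. PSBO, which stabilises the oxygen-evolving complex, had 2506, 2503 and 2504 CPM in PI_HC libraries, against 2245, 2223, 1976 and 2018 CPM in C_HC libraries. Under controlled photon flux it had 2162, 1037, 874 and 3694 CPM in PI_PC 1 to 4, against 3756, 3112, 3426 and 1028 CPM in C_PC 1 to 4. Its interaction was 0.79 (SE 0.47, adjusted p = 0.456) with all libraries and 1.59 (SE 0.30, adjusted p = 0.00118) without both PC4 libraries. Photosystem I subunit O (LOC101254806) had 1.05 (SE 0.53, adjusted p = 0.366) and 1.92 (SE 0.36, adjusted p = 0.00102).

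Calvin cycle genes had 0 of 19, 11 of 18 and 0 of 18 positive calls in the 3 sets, with medians of 0.30, 0.93 and 0.10. Of all genes 0.432%, 9.42% and 1.16% were positive calls in these sets, and 0.401%, 8.03% and 0.808% negative. Glyceraldehyde-3-phosphate dehydrogenase B (LOC101264004) had interactions of 0.69 (SE 0.30, adjusted p = 0.282) and 1.17 (SE 0.22, adjusted p = 0.00117) in the first 2. Of 34 chlorophyll and carotenoid synthesis genes 0, 19 and 2 were positive calls, and 0, 2 and 0 negative. The pair positive without the 3 libraries that stand apart were zeaxanthin epoxidase (ZEP) with 0.89 (SE 0.23, adjusted p = 0.0401) and a chlorophyllide a oxygenase gene (LOC101244441), which makes chlorophyll b, with 0.76 (SE 0.17, adjusted p = 0.0178). Their values with all libraries were 1.06 (SE 0.31, adjusted p = 0.0906) and 0.87 (SE 0.26, adjusted p = 0.093). Photorespiration had no call with all libraries or without the 3 that stand apart, and 6 positive and 3 negative of 23 without both PC4 libraries, among them glycine dehydrogenase (LOC101260070) with 1.22 (SE 0.28, adjusted p = 0.00402). Trichome genes moved with the same libraries: of 53 annotated members 39 had a count and 14 were at 0, and their summed level was 274 to 380.4 CPM in PI_HC, 364 to 499 CPM in C_HC, 158 to 289.9 CPM in PI_PC and 175 to 523 CPM in C_PC. The lowest 3 values belonged to PI_PC 2, PI_PC 3 and C_PC 4, and the part of trichome content in these results was not tested. In bulk leaf samples fewer cells of a type and less RNA per cell cannot be told apart.

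**Figure D5:**
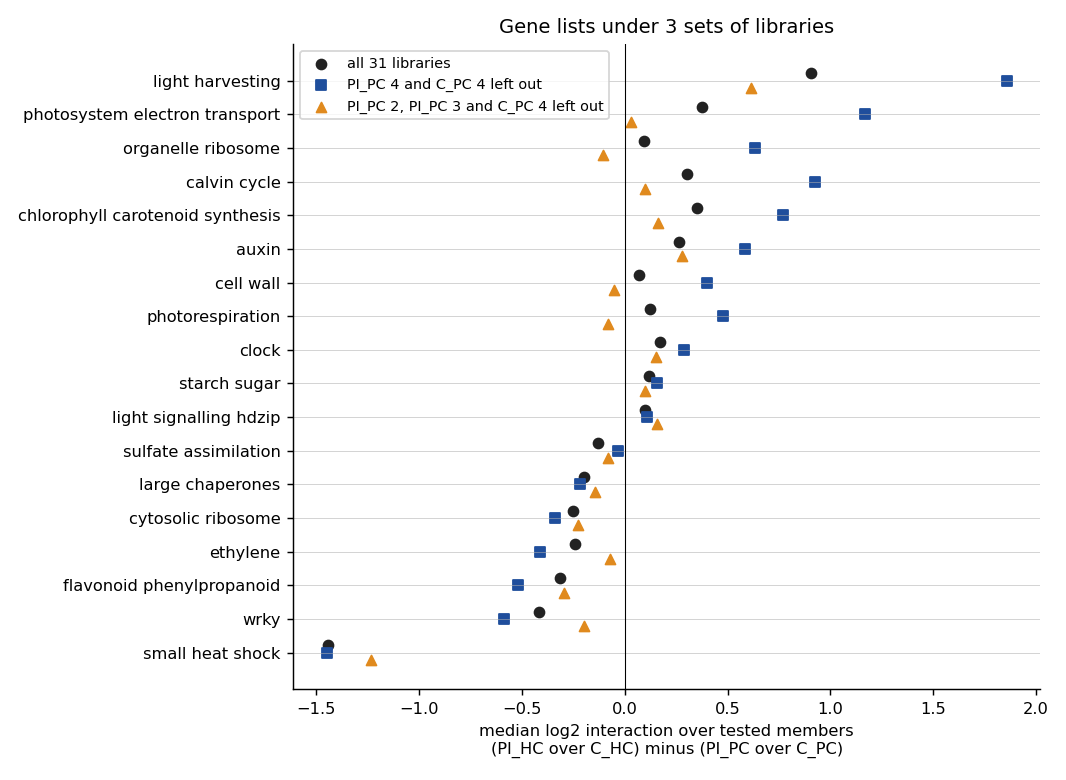
Median log2 interaction over the tested members of 18 gene lists with all libraries (circles), without both PC4 libraries (squares) and without PI_PC 2, PI_PC 3 and C_PC 4 (triangles). Light-harvesting genes lie between 0.61 and 1.86 and move with the set, whereas small heat shock genes lie between -1.45 and -1.23.

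Hormone and defence lists had 0 or 1 call each with all libraries, where 0.833% of all genes were called. Without both PC4 libraries 9.42% of all genes were positive calls and 8.03% negative. Without the 3 that stand apart the shares were 1.16% and 0.808%. Of 93 auxin genes ARF19, an auxin response factor, was the single call. It had 117, 129 and 154 CPM in PI_HC libraries, against 61.1, 68.2, 77.5 and 94.2 CPM in C_HC libraries. The flux groups had 86.3, 84.8, 57.96 and 83.2 CPM in PI_PC 1 to 4, against 98.6, 119, 102 and 64.3 CPM in C_PC 1 to 4. Each PI_HC library lay above each C_HC library, and the flux groups overlapped through C_PC 4. The interaction was 1.12 (SE 0.23, adjusted p = 0.0211) with all libraries and 1.32 (SE 0.22, adjusted p = 0.000405) without both PC4 libraries, where 17 auxin genes were positive and 3 negative. With the 3 that stand apart left out 2 of 95 were positive and 2 negative. The ARF19 call was lost without PI_HC 4, C_HC 1, PI_PC 3 or C_PC 2 (highest adjusted p = 0.11). IAA4, an auxin-responsive repressor gene, had 1.04 (SE 0.22, adjusted p = 0.00282) without both PC4 libraries and 0.80 (SE 0.27, adjusted p = 0.144) with all libraries. Of 104 ethylene genes ER24, a transcriptional coactivator gene, was the single call with all libraries at -1.46 (SE 0.35, adjusted p = 0.0409). It was lost in 10 of 15 single omissions and without the 3 libraries that stand apart, at -1.38 (SE 0.40, adjusted p = 0.0676). Ethylene genes had 8 positive and 15 negative calls without both PC4 libraries, and 1 and 1 of 108 without the 3 that stand apart. The ethylene receptor gene ETR5 had -0.86 (SE 0.25, adjusted p = 0.0908) and -1.19 (SE 0.20, adjusted p = 0.000521) in the 2 sets. Gibberellin and brassinosteroid genes had no call with all libraries and 3 positive and 7 negative of 35 without both PC4 libraries, including the gibberellin receptor gene GID1 with -1.77 (SE 0.29, adjusted p = 0.000433), against -0.83 (SE 0.55, adjusted p = 0.513) with all libraries. With the 3 that stand apart left out 1 was positive and 1 negative.

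WRKY factors, many of which act in defence, had 1 negative call of 49 with all libraries, 12 negative and no positive calls without both PC4 libraries, and 1 negative call without the 3 that stand apart. The call with all libraries was WRKY 17 (LOC543855, chr12:66294324-66295900, plus strand), which had 4.46, 3.18 and 3.09 CPM in PI_HC libraries, against 6.98, 6.09, 7.71 and 7.12 CPM in C_HC libraries. With controlled PPFD it had 6.97, 6.03, 5.84 and 5.71 CPM in PI_PC 1 to 4, against 3.93, 4.68, 3.80 and 6.26 CPM in C_PC 1 to 4. The level was low, and the height groups did not overlap. Its interaction was -1.35 (SE 0.28, adjusted p = 0.0187) with all libraries and -1.57 (SE 0.30, adjusted p = 0.00794) without the 3 that stand apart, and it was lost without PI_HC 3 or PI_HC 4 (highest adjusted p = 0.105). WRKY 33B (LOC101268787) had -1.37 (SE 0.49, adjusted p = 0.175) and -2.12 (SE 0.37, adjusted p = 0.000609) with all libraries and without both PC4 libraries. A PR-1-like gene (LOC101267821) had 2.45 (SE 0.72, adjusted p = 0.0927) and 3.32 (SE 0.61, adjusted p = 0.000822). Pathogenesis-related genes had no call of 86 with all libraries, 5 positive and 5 negative without both PC4 libraries and none of 87 without the 3 that stand apart. Jasmonate genes had none of 44, then 2 positive and 2 negative of 42, and 1 negative of 45 in the same sets. Without both PC4 libraries 9.42% of all genes were positive and 8.03% negative, above the shares of the pathogenesis-related and jasmonate lists. Without the 3 that stand apart 1.16% and 0.808% of all genes were.

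Cell wall and starch lists also had 1 call each with all libraries, where 0.833% of all genes were called. The shares of all genes without both PC4 libraries were 9.42% positive and 8.03% negative. They were 1.16% and 0.808% without the 3 that stand apart. Of 137 cell wall genes XTH5, which encodes a xyloglucan-remodelling enzyme, was the single call with all libraries at 0.81 (SE 0.19, adjusted p = 0.0361), against 0.70 (SE 0.21, adjusted p = 0.0807) without the 3 libraries that stand apart. Without both PC4 libraries 27 of 134 cell wall genes were positive and 1 negative, among them XTH7 with 1.89 (SE 0.37, adjusted p = 0.00163) and an endoglucanase gene (LOC101244370) with 1.01 (SE 0.19, adjusted p = 0.00124). Without the 3 libraries that stand apart 2 of 136 were positive and none negative. The XTH5 call with all libraries held in 7 of 15 single omissions. Of 83 starch and sugar genes a starch-binding domain gene (LOC101251213) was called with all libraries at 0.86 (SE 0.17, adjusted p = 0.0145). Starch and sugar genes had 17 positive calls and 1 negative without both PC4 libraries, and 3 positive of 84 without the 3 that stand apart. SWEET10 (LOC101265012), a sugar transporter gene, had 42.6, 32.9 and 61.5 CPM in PI_HC libraries, against 43.5, 41.9, 51.2 and 40.6 CPM in C_HC libraries. Its flux-experiment levels were 21.6, 15.6, 19.5 and 28.3 CPM in PI_PC 1 to 4, against 51.7, 53.1, 51.8 and 28.5 CPM in C_PC 1 to 4. The flux groups did not overlap, though PI_PC 4 and C_PC 4 were almost level. SWEET10 fell under the filter in the flux experiment by 1.12 (adjusted p = 0.0235) and had a height effect of 0.04 (SE 0.22, adjusted p = 0.956), with an interaction of 1.17 (SE 0.30, adjusted p = 0.057).

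Cytosolic ribosome genes were shifted by little: 25 of 194 had a positive interaction as a point estimate with all libraries, the median was -0.25 and none passed. When both PC4 libraries were left out, 21 passed, all negative, with a median of -0.34, and without the 3 that stand apart 1 passed, also negative. For these and the lists below, 0.833% of all genes were called with all libraries. Positive and negative calls were 9.42% and 8.03% of all genes without both PC4 libraries. Without the 3 that stand apart they were 1.16% and 0.808%. LOC101264022, a 60S protein gene, had -0.56 (SE 0.20, adjusted p = 0.174) and -0.75 (SE 0.18, adjusted p = 0.00753) in the 2 sets. Organelle ribosome genes had no call of 64 with all libraries (median 0.10), 19 positive and 5 negative without both PC4 libraries (median 0.63), and no call without the 3 that stand apart (median -0.11). The 50S protein gene LOC101253561 was among the 5, with -1.14 (SE 0.22, adjusted p = 0.00138). Histone genes H2B-2 and LOC101267024 were the 2 negative calls of 97 genes of dividing cells with all libraries. H2B-2 had 32.3, 38.4 and 28.2 CPM in PI_HC libraries, against 82.3, 56.9, 72.4 and 56.3 CPM in C_HC libraries. Levels in the flux experiment were 44.9, 47.3, 54.3 and 61.9 CPM in PI_PC 1 to 4, against 46.3, 32.5, 40.7 and 48.7 CPM in C_PC 1 to 4. Its height groups did not overlap. The interactions were -1.33 (SE 0.27, adjusted p = 0.0187) for H2B-2 and -0.72 (SE 0.17, adjusted p = 0.04) for LOC101267024. H2B-2 was called in 12 and LOC101267024 in 5 of 15 single omissions. In this list 6 genes were positive and 5 negative without both PC4 libraries, both below the shares of all genes there. Without the 3 that stand apart 4 of 99 were negative. The glutathione S-transferase gene LOC101265853 was the single redox call of 130 with all libraries, at -1.73 (SE 0.42, adjusted p = 0.0476). That call held in 3 of 15 single omissions. Redox genes had 13 positive and 21 negative calls of 129 without both PC4 libraries, and 2 positive and 5 negative of 130 without the 3 that stand apart. The senescence list, with the pheophytinase gene LOC101247687 at 0.56 (SE 0.16, adjusted p = 0.0862), had no call of 10 with all libraries, 2 positive and 2 negative of 9 without both PC4 libraries and none of 9 without the 3 that stand apart. Phloem genes, with a summed level of 461 to 494 CPM in PI_HC, 486 to 532 CPM in C_HC, 454 to 519 CPM in PI_PC and 439 to 498 CPM in C_PC, had none of 23, then 3 negative without both PC4 libraries and 1 negative without the 3 that stand apart. No interaction passed with all libraries among 63 flavonoid and phenylpropanoid, 57 isoprenoid, 44 nitrogen and 24 aquaporin genes or among 31 fruit and flower genes. When both PC4 libraries were left out, the positive and negative calls were 3 and 10, 13 and 2, 10 and 4, 2 and 2, and 0 and 0 in these lists. Without the 3 libraries that stand apart they were 0 and 1, 1 and 0, 0 and 1, 0 and 0, and 0 and 0.

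The remaining genes with the smallest p with all libraries were transporters and single enzymes. DETOXIFICATION 48 (LOC101268678), a MATE-type transporter gene, had 17.8, 12.9 and 13.4 CPM in PI_HC libraries, against 70.8, 58.3, 40.3 and 53.2 CPM in C_HC libraries. At controlled flux it had 30.1, 22.8, 35.1 and 37.5 CPM in PI_PC 1 to 4, against 25.5, 13.1, 31.3 and 33.7 CPM in C_PC 1 to 4. It was lower in PI_HC than in C_HC, while the flux groups overlapped. The interaction was -2.19 (SE 0.38, adjusted p = 0.00692) with all libraries and -2.24 (SE 0.39, adjusted p = 0.000609) without both PC4 libraries. A haloacid dehalogenase gene (LOC100316880, chr10:61255688-61258686, plus strand) had 329, 311 and 254 CPM in PI_HC libraries, against 196, 188, 217 and 176 CPM in C_HC libraries. In the flux experiment it had 250.3, 245, 204 and 225 CPM in PI_PC 1 to 4, against 278, 318, 262 and 266 CPM in C_PC 1 to 4. Neither pair of groups overlapped, and the effects were 0.62 (SE 0.11, adjusted p = 0.00428) in the height experiment and -0.28 (SE 0.11, adjusted p = 0.211) in the flux experiment. The interaction was 0.90 (SE 0.16, adjusted p = 0.00754) with an adjusted p of 0.00138 to 0.0297 over the single omissions. An anion:sodium symporter gene (LOC544309) had 0.64 (SE 0.12, adjusted p = 0.00977), DETOXIFICATION 16-like (LOC101253179) 0.88 (SE 0.16, adjusted p = 0.00977) and a strictosidine synthase gene (LOC101244135) 0.65 (SE 0.12, adjusted p = 0.00977). A mitochondrial pentatricopeptide repeat gene (LOC101257545) had -1.03 (SE 0.19, adjusted p = 0.00977), and SLOW GREEN 1 (LOC101245980), a chloroplast protein gene, -1.10 (SE 0.21, adjusted p = 0.0123). Of the 77 genes followed through the single omissions, 48 were called with all libraries. Of these 48, 5 kept the call in all 15 single omissions and 14 lost it only without PI_HC 4. The other 29 lost it without 2 or more single libraries. In all, 43 of the 48 lost the call without PI_HC 4. Leaving out the library labelled C_PC 4 or PI_PC 4 ended none of the 48, but calls over all genes rose there, from 135 to 1194 and 320. The 5 were both APR3 genes, SP5G, LOC100316880 and LOC543814.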

How the data were processed

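The submitters' processing notes name FastQC, HISAT2, featureCounts and DESeq2. Per the file headers, the authors deposited counts from featureCounts v2.0.1, paired and on the reverse strand, per exon record of RefSeq's SL3.0 annotation. Deposited counts were summed per gene. The 10 records without a gene name (0.0112% to 0.379% of counts) were dropped. Of 30397 genes, 28099 matched a RefSeq table of another assembly, used for names only. Genes passing edgeR's expression filter were fitted with edgeR 4.0.16 (R 4.3.3, limma 3.58.1, TMM factors) over 8 groups and 31 libraries, or without doubted libraries. CPM of genes and lists are gene counts scaled by library totals adjusted with the TMM factors. The CPM of the detection floor use totals without these factors. The steps were tested on simulated counts. Alternatives were DESeq2 1.42.0, other filters and library sets, and single omissions. Equal replicate numbers mark different plants, and their deviations correlated by -0.05 on average.

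Named genes are those with a known product and a mean log2 CPM of at least 1. They are the 8 smallest p per direction with all libraries, up to 8 opposite genes per direction, and 2 per list without both PC4 libraries. Of the 85 genes so found, 26 from the lists are not described, among them some whose interaction changed sign under an alternative. A further 18 genes that complete short counts were chosen after their values were seen. So were LOC101261778, LOC101257564, LOC101249561 and LOC101259565, which were not followed through the single omissions. Members and the 31 lists were chosen with earlier results of these data known.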

Additional observations from a re-analysis of the deposited data

Results flagged for a closer look

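In groups of 4 libraries, the highest or lowest library lay apart from the other 3 in 11 of 54 groups examined, where chance gives about 1 in 20. That share does not apply here, since several of these genes were chosen for small p in the fit without C_PC 4. The library labelled C_PC 4 accounted for 5 of them. NAC1 had 100.2 CPM there, against 28.4 to 35.6 CPM in C_PC 1 to 3, and the gibberellin 2-beta-dioxygenase gene LOC101249786 had 33.3 CPM, against 6.42 to 8.70 CPM. LOC101243970, the low-sulfur gene, had 136 CPM in C_PC 4, against 60.6 to 72.6 CPM. ACO4 had 33.9 CPM there, against 8.53 to 8.78 CPM, and the APR3 gene LOC101257319 had 55.3 CPM, against 29.02 to 33.3 CPM. C_HC 4 was high for GLK2 (21.4 CPM, against 13.6 to 13.99 CPM) and for Cab-1A (25.3 CPM, against 11.2 to 13.1 CPM). PI_PC 4 had 147 CPM of Cab-1A, against 2.15 to 19.7 CPM in PI_PC 1 to 3. PI_PC 3 was high for LOC101268020 (25.999 CPM, against 10.5 to 13.0 CPM) and for the summed small heat shock genes (5251 CPM, against 4187 to 4287 CPM). PI_PC 2 was low for PRR37, LOC101254785 (124 CPM, against 137 to 138 CPM).

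The filter effect differed between the experiments for 135 genes with all libraries and for 2813 genes without both PC4 libraries. Of 16 genes picked for these flags, 12 were called with all libraries, and other called genes are given above. The interaction was 1.58 for LOC101254370, 2.67 for LOC101252701, 2.96 for LOC101267395, 1.91 for LOC101257524 and 1.66 for GLK2. It was 1.64 for SP5G and 1.11 for LOC101254785. Negative values were -1.88 for LOC101243970, -2.72 for LOC101257319, -0.95 for LOC101267273, -1.28 for LOC101263320 and -1.63 for LOC101268020.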

How the results depend on the processing

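Counts are given in the order interaction, flux effect, height effect and opposite responses, and the cause of their changes was not tested. The values with all libraries were 135, 50, 347 and 1. They became 2813, 4646, 749 and 126 without both PC4 libraries, 2809, 4633, 704 and 122 without all 3 libraries with conflicting codes, and 322, 315, 924 and 8 without C_PC 4, PI_PC 2 and PI_PC 3. DESeq2's Wald test gave 436, 366, 660 and 8. The 4 groups alone gave 1, 0, 47 and 0, and the same fit without C_PC 4, PI_PC 2 and PI_PC 3, chosen after seeing the data, gave 127, 243, 581 and 5. A replicate block gave 76, 25, 266 and 0. Without a filter on low counts there were 80 interaction calls and 0 opposite responses, and with at least 10 counts in every library 77 flux calls. Leaving out 1 library gave 5 to 1194, 0 to 2395, 60 to 534 and 0 to 57. Scaling by DESeq2 size factors moved no count by over 1.5 times.

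Without both PC4 libraries, the values 2813, 4646, 749 and 126 became 84, 51, 991 and 2 when PI_PC 2 and PI_PC 3 were also left out. The 4 groups alone gave 1599, 3734, 288 and 29, and DESeq2's Wald test gave 198 opposite responses. Leaving out 1 library gave 1234 to 4574, 2294 to 6054, 137 to 1037 and 13 to 278. The replicate block gave 2786, 4571, 681 and 113. The deviations of libraries with equal numbers correlated by -0.05 on average (-0.69 to 0.38), against 0.01 for other pairs. These averages include pairs across the 2 experiments and the libraries that stand apart, so they cannot decide whether numbers pair plants within an experiment. Over the 77 described genes and all settings, 1490 of 1999 interaction values stayed on the same side of the threshold, 365 no longer passed and 144 newly passed. These genes were partly chosen by how they behaved under the alternatives, so the shares do not measure stability.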
